A study of Homo sapiens with 6 samples.

Results

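The 40 genes described here encode enzymes of cholesterol and fatty acid synthesis, the proteins that control them, and proteins that move sterols and lipoproteins. They were listed by name in 4 subgroups, and each was read at its brightest probe set, judged by the mean of its log2 values on the 6 arrays. Of the 40 genes 38 were measured, out of 19777 genes in the whole comparison; FDFT1 and NR1H2 were not analysed here. The cells were of the MOLM-14 line, established from human acute myeloid leukaemia with an MLL-AF9 rearrangement. One group received cortistatin A (CA) at 25 nM for 3 h, and the other its solvent, dimethyl sulfoxide (DMSO), for the same time. CA is a steroid-like alkaloid known as an inhibitor of CDK8 and CDK19, the kinases of the Mediator complex. Each group held 3 samples of this single line, read on 1 Affymetrix U133 Plus 2.0 array each, and the question put to these genes is which lipid transcripts differed after the short exposure. No separate cultures or days are named in the labels, so p-values cover only the spread among these samples, and that spread may be technical.

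Cells sense sterol in the membrane of the endoplasmic reticulum. When sterol is scarce, SCAP escorts the membrane-bound SREBP transcription factors, encoded by SREBF1 and SREBF2, to the Golgi, where they are cleaved and released to switch on genes of cholesterol and fatty acid synthesis and of lipoprotein uptake. When sterol is plentiful, INSIG proteins hold SCAP back. Oxysterols activate the nuclear receptors LXR alpha and LXR beta, encoded by NR1H3 and NR1H2, which pair with RXR and raise cholesterol exporters such as ABCA1 and ABCG1.

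The arrays had median log2 values of 5.03 to 5.08 and correlated with each other over all genes at 0.997 to 0.999. The array of CA replicate 3 stood apart, at 19.7 on the first principal component, where the other CA arrays lay at -3.43 and -4.49 and the DMSO arrays between -8.25 and 0.74. Its 3' minus 5' log2 difference at the ACTB control probe sets, a measure of RNA integrity, was 3.01, against 3.20 and 3.28 in the other CA arrays and 3.21 to 3.23 in the DMSO arrays. The same difference at the GAPDH control probe sets was 0.928 on this array, within the other CA arrays at 0.907 and 0.984, and 0.944 to 0.969 in the DMSO arrays. The part of this in the results was not tested, and calls without this array are given below. Of 15 measured markers of myeloid cells, LYZ, ELANE, IRF8, CEBPA and FLT3 were above the 90th percentile of all genes in mean log2 value. The others lay lower, among them AZU1 at percentile 89.3, MPO at 54.2, CSF1R at 48.3, SPI1 at 42.6, CD86 at 37.4 and FCGR1A at 37.0. CD14 was the dimmest, at 4.02 in CA and 3.80 in DMSO, and CD33 was not analysed here. The summed linear signal of the 15 measured myeloid markers was 22683 to 23728 in CA and 20589 to 21054 in DMSO, and that of 15 markers of lymphoid, erythroid, epithelial and fibroblast cells was 567 to 644 in CA and 567 to 593 in DMSO. Bright genes weigh most in such a sum. Among the myeloid markers above the 90th percentile the log2 changes were 0.59 for IRF8, 0.48 for CEBPA, 0.04 for FLT3, 0.04 for ELANE and -0.16 for LYZ. Of the 15 myeloid markers IRF8 and CEBPA rose and 0 fell, where 0.839% of all genes were called higher, and an unadjusted p under 0.05 was reached by 4 upward and 0 downward. Of the 15 other markers 0 passed in limma, and an unadjusted p under 0.05 was reached by 1 upward and 1 downward. At that unadjusted limma p, 7.09% of all genes were higher and 4.5% lower. The part of these marker shifts in the lipid genes was not tested. In such bulk samples, fewer cells of a type and less RNA per cell cannot be told apart.

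Of the 38 measured lipid genes, INSIG1, VLDLR, MSMO1, SQLE and LPIN1 rose in CA by 1.26-fold to 1.41-fold, and 0 fell (limma, adjusted p under 0.05 over all 19777 genes). Over all genes 0.895% were called, 0.839% higher and 0.0556% lower. The 5 genes cover each of the 4 subgroups: MSMO1 and SQLE make cholesterol, LPIN1 acts in glycerolipid synthesis, INSIG1 restrains SREBP processing, and VLDLR is a lipoprotein receptor. At an unadjusted p under 0.05, 12 lipid genes were higher and 2 were lower, where 7.09% and 4.5% of all genes were. The 3 CA values lay above the 3 DMSO values in 17 lipid genes and below them in 3, against 11.8% and 7.53% of all genes (19.3% in either direction). The log2 change was above 0 in 30 of the 38, against 51.7% of all genes, with a median of 0.07 against 0.0038. The genes were chosen with earlier results of these data known, so these excesses were not tested. With dim probe sets left out, 8 of 36 lipid genes were called, against 2.8% of all genes. Their median was then 0.075, against 0.0071 over all genes. The changes ran from -0.21 for NR1H3 to 0.54 for ABCA1.

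The calls were close to the threshold. Without CA replicate 3 INSIG1, MSMO1 and SQLE still passed, while LPIN1 and VLDLR had adjusted p-values of 0.0546 and 0.0786 in limma. Without CA replicate 1 or 2, or any single DMSO array, 0 lipid genes passed, while an unadjusted p under 0.05 was reached by 9 to 11 upward and 1 downward; the calls over all genes then numbered between 1 and 9.

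**Figure D1:**
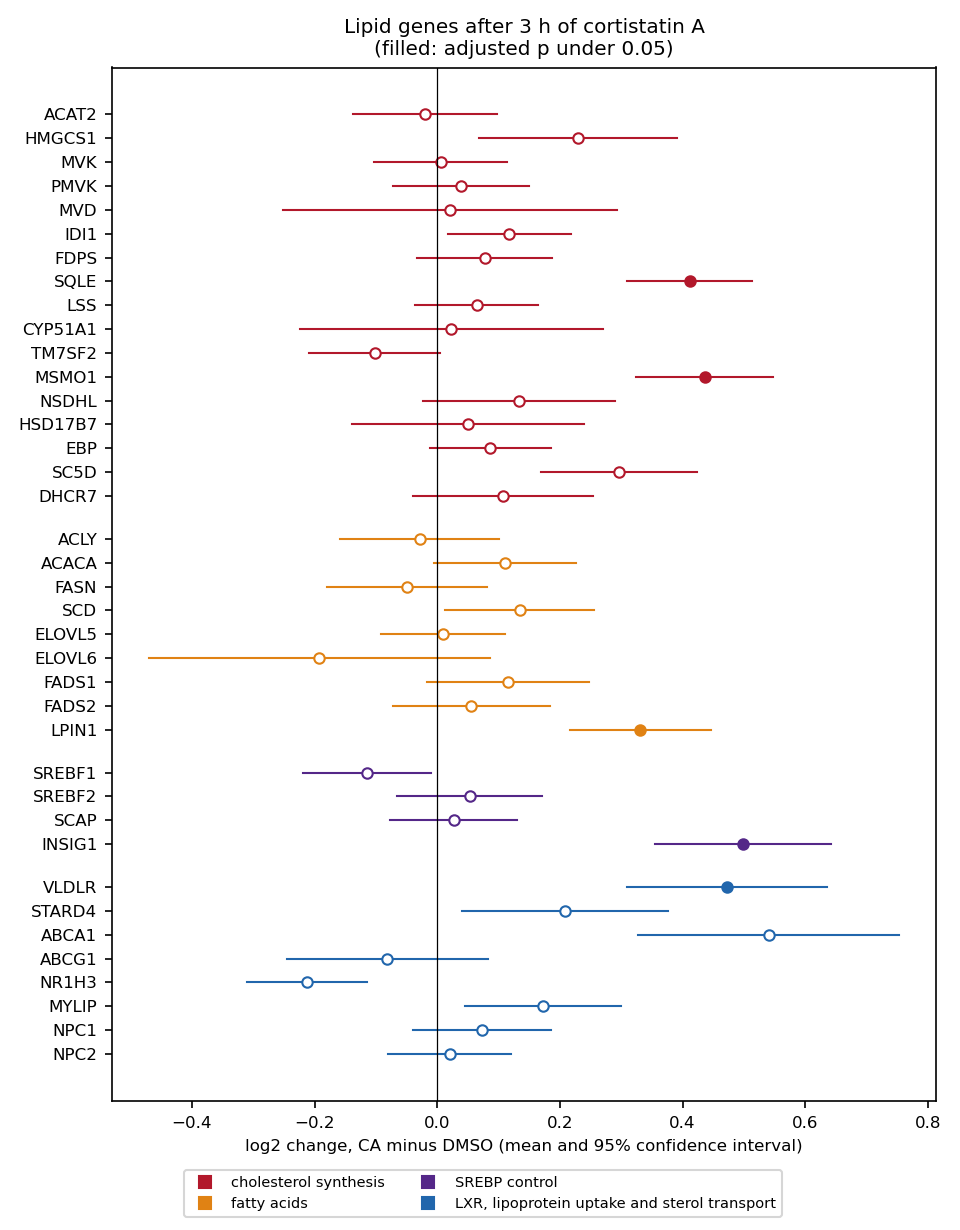
Log2 change (CA minus DMSO) of the 38 measured lipid genes by subgroup, in the order of the list, with 95% confidence intervals from limma; filled points have an adjusted p under 0.05. The 5 filled points lie between 0.33 and 0.50, and ABCA1, unfilled, has the highest value at 0.54.

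**Figure D2:**
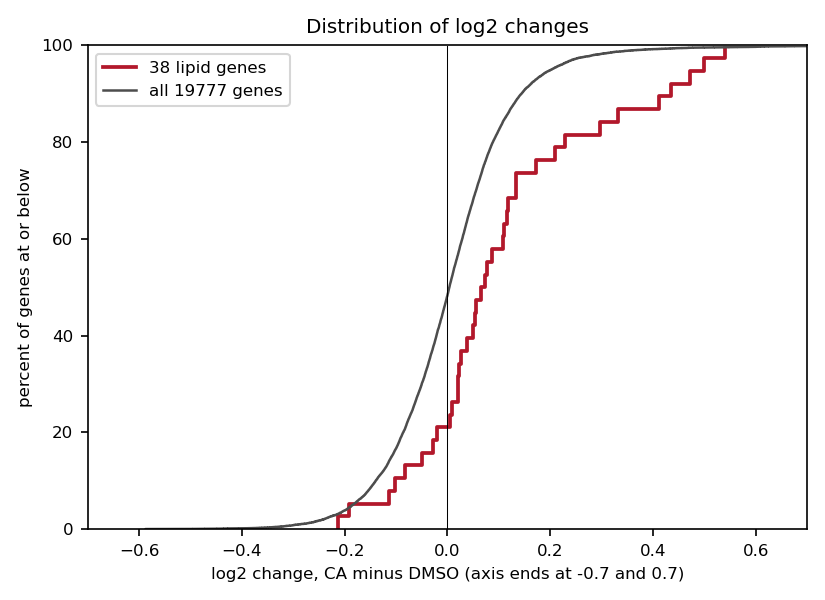
Cumulative distribution of log2 changes (CA minus DMSO, horizontal axis) for the 38 lipid genes and for all 19777 genes, as the percentage of genes at or below each value. The curve of the lipid genes lies to the right over most of its length, with a median of 0.07 against 0.0038. The genes were chosen with earlier results of these data known.

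Among the genes that control SREBP activity, INSIG1 rose and the other 3 did not pass, where 0.839% of all genes were called higher. INSIG1, which encodes the endoplasmic reticulum protein that retains SCAP and is itself an SREBP target, had log2 values of 11.49, 11.57 and 11.38 in CA, against 10.97, 11.02 and 10.97 in DMSO. The groups did not overlap, and the CA array of replicate 3 was the lowest of its group. The rise was 1.41-fold (95% confidence interval 1.28 to 1.56, limma adjusted p = 0.0244). It was the 84th largest rise among all genes. INSIG1 has 3 probe sets, of which the one used gave a log2 change of 0.50 and the others 0.63 and 0.57.

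The SREBP genes themselves differed little. SREBF1, which encodes the SREBP form that favours fatty acid synthesis, had log2 values of 8.40, 8.43 and 8.46 in CA, against 8.58, 8.54 and 8.51 in DMSO. All CA values lay below the DMSO values, with a mean difference of -7.63%, without passing over all genes (limma adjusted p = 0.396). At the other probe set of SREBF1 the log2 change was -0.16. SREBF2, whose product favours cholesterol synthesis, had log2 values of 7.11, 7.08 and 7.02 in CA, against 7.02, 7.06 and 6.96 in DMSO, and these overlap (log2 change 0.05, 95% confidence interval -0.07 to 0.17). SCAP had log2 values of 9.21, 9.15 and 9.16 in CA, against 9.17, 9.15 and 9.12 in DMSO, which overlap too. At the probe sets used, the 95% confidence intervals of SREBF2 and SCAP ended at 0.17 and 0.13 upward on the log2 scale. The other probe sets of SREBF2 gave log2 changes of -0.07 and 0.08, the latter with an interval up to 0.23 when all probe sets were fitted.

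Promoter windows, from 250 bases before to 50 after a gene's start site, were taken from RefSeq (GRCh38.p14) for 35 of the 40 genes; for ABCG1, ACAT2, FASN, FDFT1 and SQLE none was used here. They were searched on both strands for TCACNCCAC, a form of the sterol regulatory element bound by SREBP, for CCAAT, the NF-Y box, and for GGGCGG, the Sp1 box, since SREBP is known to act with both of these partners. The sterol element letters occurred in SREBF2 alone of the 35, against 1.43% of 15386 array genes with a window. CCAAT occurred in 24 of the 35 (68.6%), against 41.7% of those array genes, and GGGCGG in 33 (94.3%), against 64.6%. The E-box CACGTG occurred in 6 (17.1%), against 10.9%, and a direct repeat of AGGTCA spaced by 4 bases, an LXR response element, in 0 of 35, against 0.0195%. A gene with several windows counted once, and a match describes letters only. Only these exact letters were sought, so elements with other letters would be missed. The spaced repeat was in 3 of the 15386 array genes, so its absence here does not show that these genes lack an LXR element. The windows of the 4 called genes that have one, and of SREBF2, which was added after the search as the carrier of the sterol element, are printed where each gene is described. Capitals mark matches to any of these motifs, and positions give the left-most base of a match as printed, counted from the start site.

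The INSIG1 window lies at chr7:155297628-155297927 on the plus strand. It holds GGGCGG on either strand at -233, -126, -121, -93, -80 and 34, of which those at -126 and -121 overlap, a reversed CCAAT at -170 and the E-box at -55. The SREBF2 window, at chr22:41832855-41833154 on the plus strand, holds the sterol element at -133 and a reversed CCAAT at -106. It also holds GGGCGG on either strand at -23, -10 and -5, of which those at -10 and -5 overlap. Both windows hold the NF-Y and Sp1 letters, and a link between motifs and changes was not tested.
INSIG1: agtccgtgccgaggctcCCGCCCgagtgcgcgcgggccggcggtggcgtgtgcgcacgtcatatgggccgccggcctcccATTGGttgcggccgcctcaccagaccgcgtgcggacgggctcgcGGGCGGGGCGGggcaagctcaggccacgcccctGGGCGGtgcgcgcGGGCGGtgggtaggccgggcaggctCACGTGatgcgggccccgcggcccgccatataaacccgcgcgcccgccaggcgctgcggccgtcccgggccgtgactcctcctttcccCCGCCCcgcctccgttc
SREBF2: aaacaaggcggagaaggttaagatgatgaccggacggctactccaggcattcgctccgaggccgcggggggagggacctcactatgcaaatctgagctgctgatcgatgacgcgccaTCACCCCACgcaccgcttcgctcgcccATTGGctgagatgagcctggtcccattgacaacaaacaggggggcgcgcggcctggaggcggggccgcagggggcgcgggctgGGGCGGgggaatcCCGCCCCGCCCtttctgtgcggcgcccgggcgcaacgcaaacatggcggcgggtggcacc

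Of 17 measured enzymes of cholesterol synthesis, SQLE and MSMO1 rose and 0 fell, against 0.839% and 0.0556% of all genes. The log2 change was above 0 in 15 of the 17, against 51.7% of all genes. The CA values all lay above the DMSO values in 8 and below them in 1, against 11.8% and 7.53% of all genes. In the other 8 the groups overlapped. Among the 17 an unadjusted p under 0.05 was reached by 5 upward and 0 downward, against 7.09% and 4.5% of all genes. The median log2 change was 0.08. Both called enzymes act after squalene is made. SQLE is the squalene epoxidase, a rate-limiting step of the sterol branch. MSMO1 oxidises the methyl groups at carbon 4 of the sterol ring, a step in their removal. SQLE had log2 values of 9.13, 9.16 and 9.10 in CA, against 8.69, 8.72 and 8.74 in DMSO. MSMO1 had log2 values of 9.62, 9.67 and 9.59 in CA, against 9.16, 9.18 and 9.23 in DMSO. In both genes the CA arrays were well above the DMSO arrays and each group was tight, with SDs of 0.04 or less. SQLE rose 1.33-fold (95% confidence interval 1.24 to 1.43, limma adjusted p = 0.0160). MSMO1 rose 1.35-fold (1.25 to 1.46, limma adjusted p = 0.0173). The other probe sets of SQLE gave log2 changes of 0.32, 0.37 and 0.14, and with the mean of its probe sets SQLE did not pass (log2 change 0.31, adjusted p = 0.114).

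The MSMO1 window lies at chr4:165327419-165327718 on the plus strand. It holds CCAAT on either strand at -185, -139, -76 and -34 and GGGCGG on either strand at -250 and -53, and thus has 4 NF-Y boxes, against 1 in the INSIG1 window.
MSMO1: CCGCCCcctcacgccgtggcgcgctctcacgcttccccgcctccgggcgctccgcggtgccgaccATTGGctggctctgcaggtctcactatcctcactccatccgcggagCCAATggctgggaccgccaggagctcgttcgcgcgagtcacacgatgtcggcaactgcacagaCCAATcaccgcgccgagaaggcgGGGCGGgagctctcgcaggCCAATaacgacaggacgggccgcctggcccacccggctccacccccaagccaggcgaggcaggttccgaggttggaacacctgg

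A further 3 enzymes had separate groups and an unadjusted p under 0.05. SC5D, the desaturase that introduces the double bond at carbon 5 of the sterol, had log2 values of 8.85, 8.95 and 8.89 in CA, against 8.64, 8.62 and 8.53 in DMSO, 1.23-fold higher with a limma adjusted p of 0.0824. HMGCS1, which condenses acetyl and acetoacetyl groups into the precursor of mevalonate, had log2 values of 8.95, 9.03 and 8.84 in CA, against 8.65, 8.80 and 8.68 in DMSO, 1.17-fold higher (adjusted p = 0.273). IDI1, which interconverts the isoprene units, had log2 values of 10.99, 10.97 and 11.02 in CA, against 10.90, 10.88 and 10.85 in DMSO, 1.08-fold higher (adjusted p = 0.361). All CA arrays exceeded all DMSO arrays in each, with the widest gap in SC5D. At second probe sets the log2 change was 0.29 for HMGCS1 and 0.16 for SC5D, and it was -0.06 at the faintest of the 4 probe sets of IDI1.

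The other 12 enzymes had unadjusted p-values above 0.05, and none passed in limma over all genes. In FDPS, LSS and EBP, which make farnesyl diphosphate, close the sterol ring and shift its double bond, the CA values were all above the DMSO values, with log2 changes of 0.08, 0.06 and 0.09. In TM7SF2, a sterol reductase, they were all below, with a log2 change of -0.10. At the probe sets used, ACAT2, MVK, PMVK, MVD, NSDHL, HSD17B7, DHCR7 and CYP51A1 overlapped between the groups. These 8 span the pathway from its first step to its last, and their log2 changes there ran from -0.02 for ACAT2 to 0.13 for NSDHL. At another probe set of MVK, NSDHL and DHCR7 all CA values were above the DMSO values, with log2 changes of 0.19, 0.17 and 0.11. The remaining probe sets of MVK gave -0.11 and -0.09, with overlap. CYP51A1, the lanosterol demethylase, was read at a probe set that also lists LRRD1, with log2 values of 10.15, 10.25 and 9.85 in CA, against 10.06, 10.11 and 10.01 in DMSO; CA replicate 3 was the lowest of all 6 arrays, and the log2 change was 0.02. The other probe set that lists both genes gave 0.32, with the CA values above the DMSO values, so the pair of probe sets disagree.

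**Figure D3:**
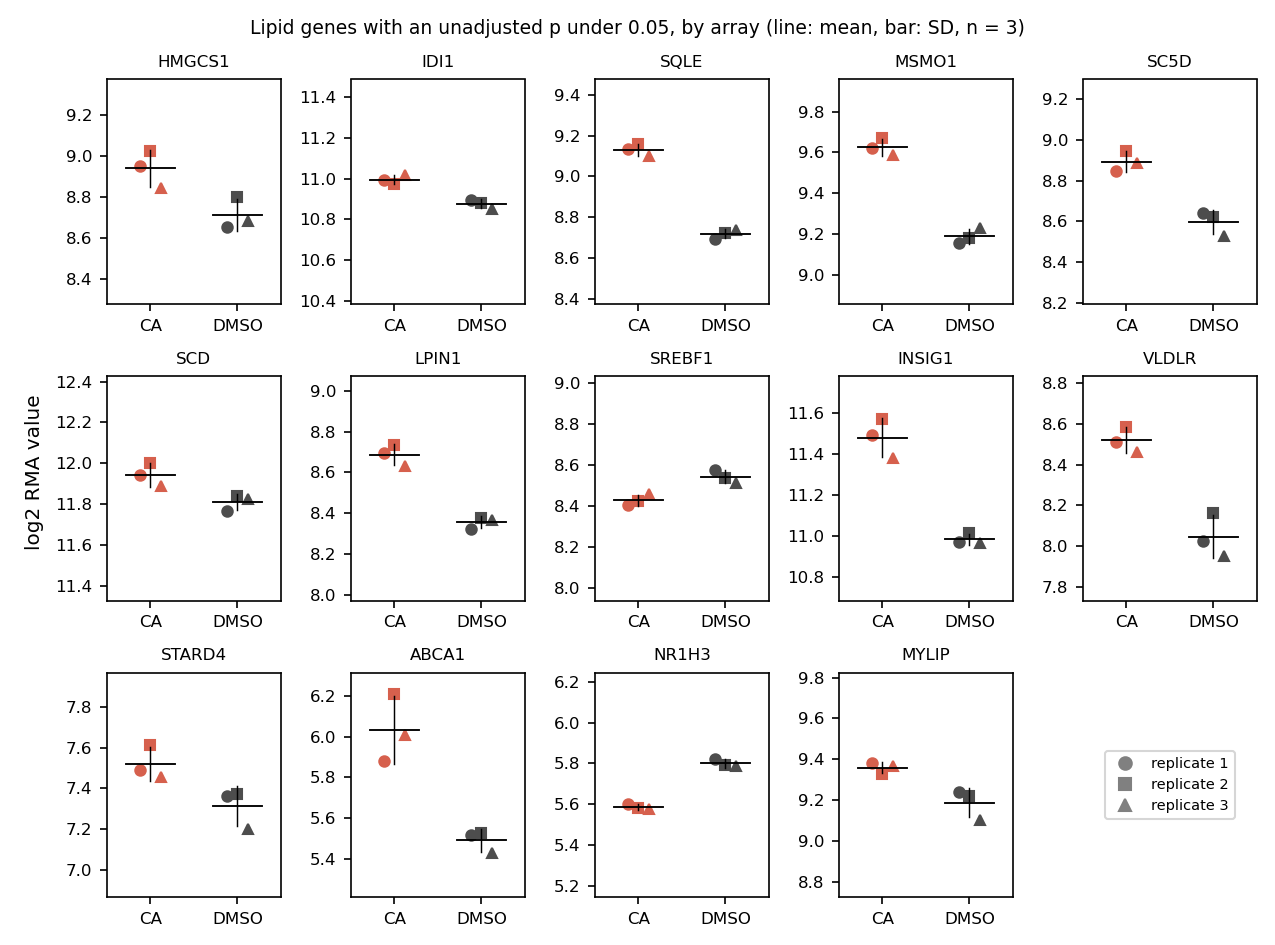
Log2 RMA values by array for the 14 lipid genes with an unadjusted p under 0.05, CA on the left and DMSO on the right of each panel, with marker shapes for the replicate, a line at the mean and a bar of 1 SD (n = 3); every panel spans the same range of log2 units. The CA values lie above the DMSO values in 12 panels and below them in SREBF1 and NR1H3. The panels were chosen by p in these same values, which favours groups that do not overlap.

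Of the 9 genes of fatty acid and glycerolipid synthesis, LPIN1 rose and 0 fell, against 0.839% and 0.0556% of all genes. The median log2 change of the 9 was 0.06. LPIN1 encodes lipin, a phosphatidate phosphatase and nuclear coregulator that is a known SREBP target. Its log2 values were 8.70, 8.73 and 8.63 in CA, against 8.32, 8.38 and 8.37 in DMSO, with no overlap. The rise was 1.26-fold (95% confidence interval 1.16 to 1.36, limma adjusted p = 0.0394). At a second probe set of LPIN1 the log2 change was 0.29 and at the third, dim one -0.04; with the mean of the 3 the adjusted p was 0.143, and it was 0.0923 with arrays centred on their medians.

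LPIN1 has 3 promoter windows, and the one that the RefSeq promoter table lists first, at chr2:11746382-11746681 on the plus strand, is shown. It is the last of the 3 along the chromosome. It holds reversed GGGCGG at -88, -74, -55 and -44 and none of the other motifs, unlike those of INSIG1 and MSMO1, which carry CCAAT as well.
LPIN1: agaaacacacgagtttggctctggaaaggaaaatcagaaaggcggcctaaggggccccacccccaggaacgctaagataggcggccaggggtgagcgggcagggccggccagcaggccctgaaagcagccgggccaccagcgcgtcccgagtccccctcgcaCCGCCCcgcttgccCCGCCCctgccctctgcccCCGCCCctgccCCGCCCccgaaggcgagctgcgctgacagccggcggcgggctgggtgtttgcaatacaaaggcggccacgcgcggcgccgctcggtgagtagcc

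SCD, the desaturase that makes oleate, had log2 values of 11.94, 12.00 and 11.89 in CA, against 11.76, 11.84 and 11.82 in DMSO. The groups were separate but close (1.10-fold, limma adjusted p = 0.390), and the other 3 probe sets of SCD gave log2 changes of 0.21, 0.22 and 0.26. ACACA, the carboxylase that commits carbon to fatty acids, and FADS1, a desaturase of polyunsaturated fatty acids read at a probe set that also lists MIR1908, had all CA values above all DMSO values, with log2 changes of 0.11 and 0.12 (limma adjusted p = 0.453 and 0.486). ACLY, which supplies acetyl-CoA, FASN, the fatty acid synthase, the elongases ELOVL5 and ELOVL6, and the desaturase FADS2 overlapped between the groups. Their log2 changes were -0.03, -0.05, 0.01, -0.19 and 0.06, and ELOVL6 lay below the array medians, at a mean log2 value of 4.47 in CA and 4.67 in DMSO. The 95% confidence interval of FASN reached from -0.18 to 0.08, so a rise as large as that of SQLE or LPIN1 lay outside it.

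Of the 8 measured genes of LXR signalling, lipoprotein uptake and sterol transport, VLDLR rose and 0 fell, against 0.839% and 0.0556% of all genes. An unadjusted p under 0.05 was reached by 4 upward and 1 downward, against 7.09% and 4.5% of all genes. VLDLR, a receptor that takes up triglyceride-rich lipoproteins, had log2 values of 8.51, 8.59 and 8.46 in CA, against 8.02, 8.16 and 7.95 in DMSO. The lowest CA value was above the highest DMSO value by more than the SD of either group (0.06 in CA and 0.11 in DMSO). The rise was 1.39-fold (95% confidence interval 1.24 to 1.55, limma adjusted p = 0.0394). VLDLR has 1 probe set, and with arrays centred on their medians its adjusted p was 0.0636.

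The VLDLR window lies at chr9:2621537-2621836 on the plus strand. It holds reversed GGGCGG at -59 and -55, which overlap, and no CCAAT, E-box or sterol element letters.
VLDLR: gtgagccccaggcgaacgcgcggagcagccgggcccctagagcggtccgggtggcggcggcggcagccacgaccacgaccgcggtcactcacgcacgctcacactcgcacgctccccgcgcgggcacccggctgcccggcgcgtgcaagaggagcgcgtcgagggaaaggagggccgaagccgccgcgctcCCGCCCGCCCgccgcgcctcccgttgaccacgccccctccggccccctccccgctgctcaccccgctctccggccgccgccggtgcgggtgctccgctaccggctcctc

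ABCA1, the exporter that hands cholesterol to lipid-poor apolipoproteins and a classic LXR target, had log2 values of 5.88, 6.21 and 6.01 in CA, against 5.52, 5.53 and 5.43 in DMSO. The groups were separate, with CA replicate 2 the highest, and the difference was the largest among the 38 genes at 1.45-fold (95% confidence interval 1.26 to 1.68). It missed the threshold with a limma adjusted p of 0.0626. The second, dimmer probe set, at a mean log2 value of 4.37, had a log2 change of 0.74 and passed when all 54613 probe sets were tested (adjusted p = 0.0189), while the other 2 gave -0.06 and 0.09. ABCA1 passed with the mean of its probe sets (adjusted p = 0.0303), without dim probe sets (0.0273) and with an intensity trend and robust fit (0.0116). It did not pass with array weights (0.0581), centred arrays (0.0596), cyclic loess (0.0655) or without _x_at, _s_at and _a_at probe sets (0.0779), and with single arrays left out the limma adjusted p was 0.0989 to 0.268.

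NR1H3, which encodes LXR alpha, differed in the opposite direction from ABCA1. Its log2 values were 5.60, 5.58 and 5.58 in CA, against 5.82, 5.79 and 5.79 in DMSO. Each group spanned no more than 0.04 log2 units, and all CA values lay below the DMSO values, with a mean difference of -13.7% (95% confidence interval of the log2 change -0.31 to -0.11). It did not pass over all genes (limma adjusted p = 0.0986), and passed without dim probe sets (0.0270). With other probe set choices, spread models and scalings the limma adjusted p was between 0.0703 and 0.269, and with single arrays left out between 0.155 and 0.380. ABCG1, another LXR-driven exporter, lay below the array medians, at a mean log2 value of 4.06 in CA and 4.15 in DMSO, and its groups overlapped (log2 change -0.08).

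MYLIP, an LXR-induced ubiquitin ligase that marks lipoprotein receptors for degradation, had log2 values of 9.38, 9.33 and 9.37 in CA, against 9.24, 9.22 and 9.10 in DMSO. STARD4, a soluble sterol carrier and SREBP target, had log2 values of 7.49, 7.61 and 7.46 in CA, against 7.37, 7.37 and 7.20 in DMSO. Both were higher in every CA array without passing, at 1.13-fold and 1.16-fold (limma adjusted p = 0.295 and 0.337), and the 6 probe sets of MYLIP gave log2 changes from -0.11 to 0.22. NPC1 and NPC2, which together carry cholesterol out of lysosomes, overlapped between the groups, with log2 changes of 0.07 and 0.02.

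The 38 genes had 93 probe sets, of which 55 were not used above. Of these 55, 38 had a log2 change above 0, with a median of 0.09. The share of all probe sets with a log2 change above 0 was not counted. When all 54613 probe sets were tested, 2 of the 55 passed, both upward: the second ones of INSIG1 and ABCA1. Of the 38 used above, MSMO1 (limma adjusted p = 0.0476) and SQLE (0.0487) passed in that test, while INSIG1 (0.0549), VLDLR (0.0830) and LPIN1 (0.109) did not. Over all probe sets 0.212% were called higher and 0.00732% lower. Of the 55, 17 with an unadjusted p under 0.05 were higher and 1, of FASN, was lower, where 4.91% and 3.71% of all probe sets were. Of the 26 genes with more than 1 probe set, 14 had the same sign at each of them, among them INSIG1, SQLE, SCD, HMGCS1 and SC5D. These probe sets read the same RNA on the same arrays and are not further replicates.

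**Figure D4:**
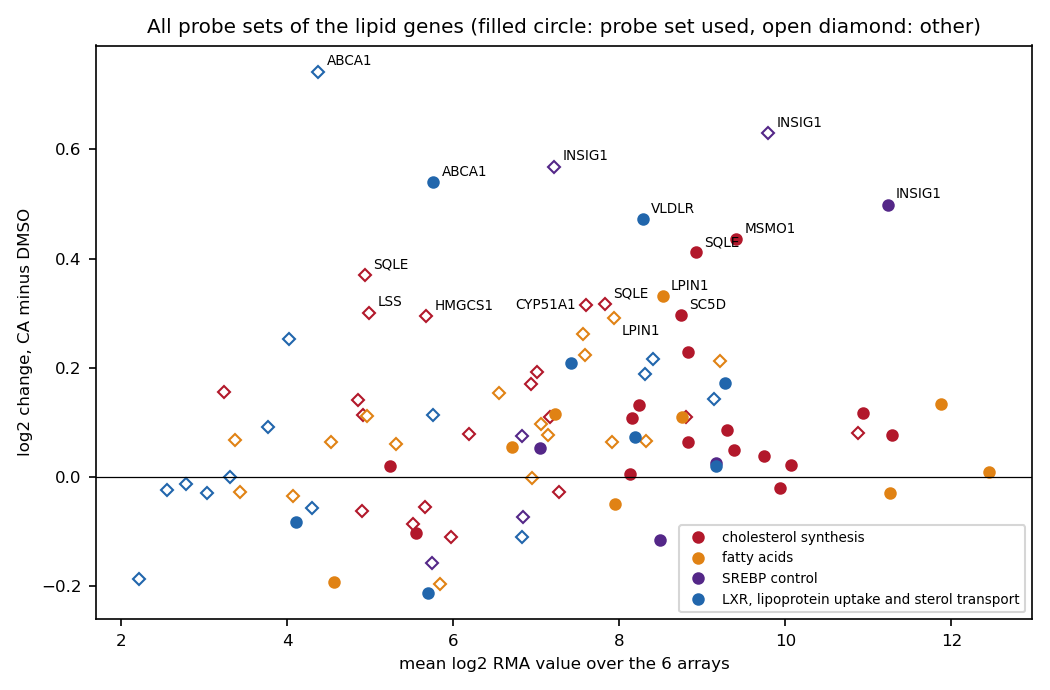
Log2 change (CA minus DMSO, vertical axis) against mean log2 RMA value over 6 arrays (horizontal axis) for the 93 probe sets of the 38 lipid genes; filled circles are the probe sets used and open diamonds the others, with names where the change exceeds 0.29 in size. The 3 probe sets of INSIG1 lie between 0.50 and 0.63, and those of ABCA1 spread from -0.06 to 0.74.

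Of 73 other measured genes of the same pathways, in 3 lists, RXRA, ERLIN1 and MID1IP1 rose and 0 fell, where 0.839% of all genes were called higher. Among the 73 an unadjusted p under 0.05 was reached by 6 upward and 2 downward, against 7.09% and 4.5% of all genes, and the median log2 change was 0.0011. RXRA, the RXR partner of LXR and of other nuclear receptors, had log2 values of 11.08, 11.08 and 11.03 in CA, against 10.59, 10.60 and 10.59 in DMSO, a rise of 1.38-fold (95% confidence interval 1.29 to 1.48, limma adjusted p = 0.0104). ERLIN1, a membrane protein of the endoplasmic reticulum that takes part in sterol-controlled protein degradation, rose 1.23-fold (limma adjusted p = 0.0320), with log2 values of 12.35, 12.38 and 12.36 in CA, against 12.04, 12.05 and 12.08 in DMSO. MID1IP1, which promotes the assembly of acetyl-CoA carboxylase into its active polymer, rose 1.27-fold (limma adjusted p = 0.0374), with log2 values of 7.95, 7.98 and 8.01 in CA, against 7.66, 7.68 and 7.57 in DMSO. In each of the 3 genes all CA arrays exceeded all DMSO arrays. By list, the log2 change was above 0 in 12 of 15 genes of cholesterol synthesis and SREBP control. It was above 0 in 13 of 27 of fatty acid and glycerolipid synthesis (48.1%), and in 13 of 31 of LXR, lipoprotein and sterol transport (41.9%). Over all genes the share was 51.7%. Without CA replicate 3 1 of the 73 passed, and without any other single array 0 passed in limma.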

How the data were processed

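RNA of 3 CA and 3 DMSO samples of MOLM-14 cells was read on 3' labelled Affymetrix U133 Plus 2.0 arrays. The authors deposited log2 values for each probe set; per the submitters' processing notes, RMA in the affy package produced them. Versions, scan dates and the RNA kit of each sample are not stated in these sources. RMA equalises the arrays' distributions, which would hide a shift common to all genes and can compress differences of dim probe sets. No further normalisation or filter was applied, after leaving out 62 control probe sets of 54675.

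Of the other 54613 probe sets, 41091 had 1 gene symbol, 1801 several and 11721 none. The brightest probe set with 1 symbol stood for each gene, which gave 19775 genes; CYP51A1 and FADS1 had only probe sets that list a second gene and were added. Samples were grouped by their titles. The contrast was CA minus DMSO, fitted in R 4.3.3 by limma 3.58.1 (lmFit, eBayes) with neither trend nor block; tests were two-sided and p-values were adjusted by Benjamini-Hochberg over all genes; a gene rose or fell at an adjusted p under 0.05. Log2 changes had a median SE of 0.07. With 3 against 3 samples an exact permutation test cannot go below 0.1, so the p-values rest on limma's model. Precision is limited by the number of arrays.

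The genes, lists and tests were chosen with earlier results of these data known, so no list was tested. All 40 genes were to be named, with every array's value for those at an unadjusted p under 0.05 and for the main regulators, and of other lists the called genes. The fit was tested on simulated data for this comparison over 19777 genes: for log2 rises of 0.3, 0.5 and 1 it called 2.94%, 64.7% and 97.0% of the changed genes, so changes of the size of LPIN1 were mostly missed there. The alternatives were other probe set choices, filters, spread models, scalings, a replicate block, another threshold and leaving out each array.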

Additional observations from a re-analysis of the deposited data

How the results depend on the processing

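The calls depended on the fit, while the directions of the larger changes did not. INSIG1, MSMO1, SQLE, LPIN1, VLDLR, ABCA1, SC5D and NR1H3 kept their sign in all alternatives that measured them, with log2 changes between 0.45 and 0.57 for INSIG1, 0.41 and 0.46 for MSMO1, 0.31 and 0.43 for SQLE, 0.20 and 0.36 for LPIN1, and 0.43 and 0.53 for VLDLR. The number of lipid genes that rose, 5 in the reported fit, was 4 with the mean of all probe sets of a gene (1 of cholesterol synthesis, 0 of fatty acids, 2 of LXR and transport). It was 3 without _x_at, _s_at and _a_at probe sets and 3 with arrays centred on their medians (0 of fatty acids and 0 of LXR and transport in both). Without those suffixes only 27 lipid genes were measured, and VLDLR, whose 1 probe set has such a suffix, was not among them. It was 7, with NR1H3 lower as 1 fall, without dim probe sets and at an adjusted p under 0.1, and 7 with an intensity trend and robust fit, with 2 higher of LXR and transport in each of these 3. Of all genes, 166 higher and 11 lower as reported, 72 and 2, 311 and 40, 450 and 95, and 272 and 42 passed with those suffixes left out, with dim probe sets left out, with the trend, and at 0.1; the lower ones numbered 21 with array weights, 5 with centred arrays and 19 with cyclic loess. Of the other lipid genes, 3 as reported, 0 passed without _x_at, _s_at and _a_at probe sets, where RXRA was not measured, 5 with the trend and 1 with centred arrays. The median log2 change of the lipid genes was 0.053 with cyclic loess. Fewer genes tested is the construction of the filters; otherwise the cause was not tested.

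With the replicate number as a block, 0 lipid genes passed in limma (0 in each subgroup and 0 of the other lipid genes). Over all genes 6 higher and 0 lower passed. An unadjusted limma p under 0.05 was reached by 12 lipid genes upward and 1 downward. The share of all genes at that p was not counted in this fit. The labels state no pairing, and deviations of same-numbered arrays correlated at 0.04, 0.22 and 0.25, with 1 of these under 0.1. CA replicates 2 and 3 correlated best with the DMSO array of their own number, and CA replicate 1 with DMSO replicate 2 (0.09). The remaining pairs of unlike number correlated at -0.26 to 0.0050. These values do not settle whether the numbers pair the samples, and the reported fit took them as unpaired because the labels state no pairing. Leaving out each array gave 0 to 3 lipid genes higher (0 to 2 of cholesterol synthesis, 0 of fatty acids, 0 to 1 of SREBP control, 0 of LXR and transport), 0 to 1 other lipid genes, and 1 to 103 higher and 0 to 9 lower over all genes; the median of the lipid genes was 0.06 to 0.08. Values of the dim genes ELOVL6 and ABCG1 are limited by their low signal.

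Small changes turned sign. The log2 change of ACLY was 0.034 with the mean of its probe sets and 8.2e-05 with array weights, and that of MVK was -0.0095 with array weights and -0.011 with cyclic loess. Without _x_at, _s_at and _a_at probe sets that of IDI1 was -0.062, of MYLIP -0.11 and of ABCG1 9.0e-05. Over the fits without 1 array, it ran from -0.051 to 0.0078 for ACAT2, from -0.014 to 0.026 for MVK, from -0.042 to 0.14 for MVD, from -0.059 to 0.14 for CYP51A1, from -0.055 to 0.011 for ACLY and from -0.0040 to 0.025 for ELOVL5.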
